A study of Mus musculus with 15 samples.

Results

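The circular RNAs of GFP negative cells from the ventral midbrain of mouse embryos were described at embryonic day 14. A circular RNA (circRNA) was taken as a member of this repertoire when it had a value above 0 in at least 2 of the 3 GFP negative libraries, and 1361 of the 3927 circRNAs in the sorted E14 table met the rule. Together with the time series table, the study listed 11455 circRNA entries, in which a circRNA found in both tables counts in each. The cells came from embryos of the Pitx3-GFP genotype, in which the dopamine neuron gene Pitx3 is reported by green fluorescent protein (GFP), and were separated by fluorescence-activated cell sorting. The reporter was carried by the animals behind every group used here: E14 GFP negative cells (3 libraries), E14 GFP positive cells sorted beside them (3 libraries), and E14 GFP positive cells of a separate time series (3 libraries). Midbrains of 3 litters went into the study, and the labels do not tie a library to a litter, so SDs and p-values measure the spread between these libraries alone, part of which may be technical. GFP negative libraries are numbered here by their column in the deposited tables.

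Most circRNAs arise when the spliceosome joins the end of an exon to the start of the same or an earlier exon, an event called back-splicing, which leaves a closed loop without a cap or poly(A) tail. Such loops resist exonucleases and can outlast the linear RNA of their gene, and the brain is known for a rich supply of them. A circRNA is counted from reads that cross its back-splice junction, and the gene that holds the exons is called its host. The number in a circRNA's name here is its order in the authors' table, and the last part is its host.

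GEO's labels give the cell type of these libraries as dopamine neurons, and the marker genes went against that for the GFP negative libraries. Th, the enzyme that sets the rate of dopamine synthesis, stood at 77.5, 110 and 82.2 normalized reads in GFP negative libraries 1, 2 and 3 and at 8559 ± 850 in GFP positive cells (mean ± SD, n = 3). All 10 dopamine neuron markers were lower in GFP negative than in GFP positive cells by limma at an adjusted p of 0.05. The GFP negative libraries held RNA of many other cells. Fabp7, which binds fatty acids and marks radial glia, was at 47842 ± 4860 normalized reads, and the 7 radial glia and progenitor markers ranged from 367 to 47842. The highest marker of dividing cells stood at 2698, of erythroid cells at 1622, of microglia at 177, of endothelial and mural cells at 457 and of the oligodendrocyte lineage at 1554, and all markers of these types and of radial glia were lower in GFP positive cells. Neuronal markers were mixed. Of 5 GABAergic markers 3 were lower in GFP positive cells and 2 higher. The lower ones were Gad1 (1251 normalized reads in GFP negative and 99.0 in GFP positive cells), Tal1 (837 and 38.6) and Gata3 (219 and 20.8). The higher ones were Gad2 (1739 and 2035) and Slc32a1 (217 and 486). Both glutamatergic markers were lower in GFP positive cells. Slc17a6 stood at 5285 in GFP negative and 4264 in GFP positive cells, and Pou4f1 at 771 and 47.3. No marker was at 0. The repertoire is therefore that of a mixture of cell types left after GFP positive cells were taken out. In such bulk samples, fewer cells of a type and less RNA per cell cannot be told apart.

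The GFP negative libraries held 10498, 15050 and 16509 back-splice reads over all circRNAs and 17748273, 21793873 and 22374153 reads over genes. Members took 90.7%, 88.7% and 87.3% of the back-splice reads, and 1066, 1174 and 1232 of them were above 0 in libraries 1, 2 and 3. Both the reads and the number of members seen were lowest in library 1. In the circRNA table the lowest value above 0 equalled 2 reads, so a 0 can stand for a single read and does not show that a circle was absent.

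Of the 1361 members, 750 were above 0 in all 3 libraries and 611 in exactly 2, while another 1606 circRNAs of the table were seen in 1 library and 960 in none. The rule worked at the edge of detection. Members seen in exactly 2 libraries had a median mean of 2.13 normalized reads, against 0.782 for the circRNAs seen in 1 library and therefore left out. The most abundant just inside was circ_00237_Tnrc6c, at 11.7, 0 and 24.0, and the most abundant just outside was circ_00766_Snrk, at 23.5, 0 and 0. Members present in all 3 libraries had a median of 6.09 and ranged from 1.86 to 530. Without GFP negative library 3, the deepest, 879 circRNAs were above 0 in both remaining libraries.

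Abundance was concentrated in few circles. The median member had a mean of 3.64 normalized reads (interquartile range 2.16 to 6.87). Only 229 members reached a mean of 10, 88 reached 20, 31 reached 50 and 11 reached 100. The 20 most abundant members held 25.4% ± 0.517 of all member values (SD, n = 3 libraries) and the 100 most abundant 47.9% ± 0.532. Ranked by mean, 114 members carried 50% of the summed signal. For the 88 members with a mean of at least 20, the highest library stood above the lowest by a median factor of 1.39, and 57 of them by less than 1.5. The most variable was circ_00055_Scaper, at 3.03-fold, followed by circ_00097_Phip at 2.60-fold. Over all members the rank correlation between libraries was 0.49 to 0.57, and over those with a mean of at least 10 the correlation of log2 values was 0.82 to 0.84. These correlations run over circRNAs of libraries that share a tissue and are given as a description.

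The most abundant circle came from Tulp4, which encodes a protein of the tubby-like family (chromosome 17, 6106437 to 6251128, GRCm38). circ_00002_Tulp4 stood at 519, 557 and 515 normalized reads in libraries 1, 2 and 3. It took 4.74% ± 0.183 of all member values. In every library it lay above each of the other 19 most abundant members, which peaked at 271.

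Below it came circles of a growth factor-like gene, a synaptic gene and a chromatin gene. circ_00003_Hdgfl3, whose host is a relative of hepatoma-derived growth factor (chromosome 7, 81881251 to 81934473), stood at 240, 256 and 229. circ_00006_Rims2, from the gene of a scaffold protein of the presynaptic active zone (chromosome 15, 39198261 to 39684372), stood at 209, 271 and 218. circ_00005_Ezh2, from the gene of the histone methyltransferase of Polycomb repressive complex 2 (chromosome 6, 47530139 to 47595341), stood at 232, 198 and 214. The ranges of these 3 circles overlapped, so their order was not set by these libraries. circ_00007_Elf2, from the gene of an ETS transcription factor (chromosome 3, 51252720 to 51340663), followed at 162, 178 and 177. circ_00004_Rmst, from a long non-coding RNA gene (chromosome 10, 92071037 to 92165170), was at 148, 184 and 156, a range that overlapped with that of the Elf2 circle.

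A pair of circles came from Ttc3, the gene of a ubiquitin ligase (chromosome 16, 94370618 to 94469343). circ_00009_Ttc3 was at 169, 100.3 and 147 and circ_00012_Ttc3 at 120, 130 and 99.1. Library 2 was the lowest for the first and the highest for the second. The remaining members with a mean of at least 100 were circ_00010_Strn3, from a subunit gene of a protein phosphatase complex, at 111 ± 13.8, circ_00014_Zfp827, from a zinc finger gene, at 110 ± 7.02, and circ_00011_Nsd2, from a histone methyltransferase gene, at 107 ± 10.03 (SD, n = 3).

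The other 9 of the 20 had means from 67.6 to 91.7. They came from Lrch3, Fat3 (a giant cadherin), Rasa2 (an inhibitor of Ras), Mettl9 (a protein methyltransferase), Zfp148 (a zinc finger transcription factor), Ankib1 (a ubiquitin ligase), Tmeff1 (a membrane protein with follistatin domains), Anks1b (a postsynaptic scaffold) and Robo1 (a Slit receptor). circ_00016_Lrch3 stood at 69.2, 113 and 92.9 and circ_00022_Robo1 at 86.8, 44.7 and 71.2, the widest relative spreads of the 20 beside that of circ_00009_Ttc3. In the plot of the 20 most abundant circles, each library's value is shown.

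**Figure D1:**
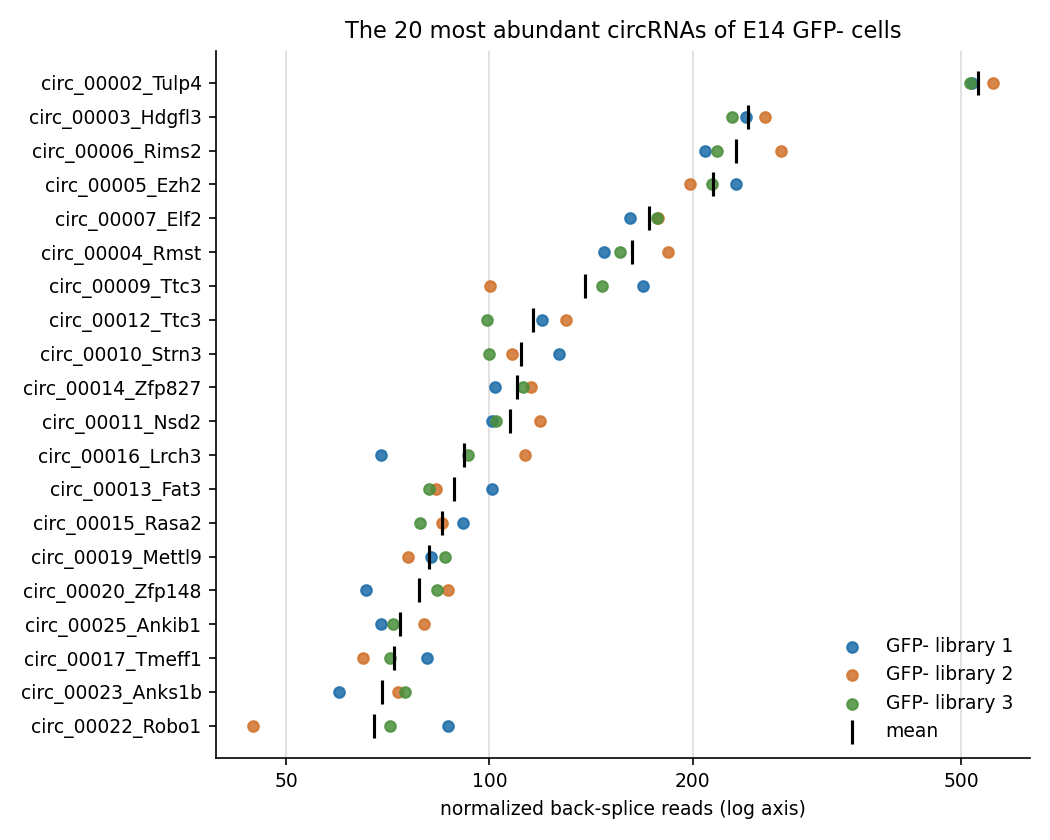
Normalized back-splice reads (log axis) of the 20 most abundant circRNAs in each of the 3 E14 GFP negative libraries (points) with their mean (vertical bar). circ_00002_Tulp4 lies at 515 to 557 in the 3 libraries, apart from the rest, and the circles of Robo1, Lrch3 and Ttc3 (circ_00009) show the widest relative spread.

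The members came from 854 host genes and 3 antisense labels, with 17 members named intergenic. Most hosts gave a single circle: 582 hosts (68.1%) had exactly 1 member, 168 had 2, 55 had 3, 26 had 4 and 23 had 5 or more. The 272 hosts with at least 2 members gave 56.6% of the members that had a host gene. Without GFP negative library 2 or 3, when a circle had to be above 0 in both that remained, 165 and 160 hosts had at least 2. The 154 members of the 23 hosts with 5 or more held 22.9% of the summed member means. The files give no coordinates for circRNAs, so circles of the same host may share exons, and they are not independent of each other.

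Hosts with many circles differed in whether a single circle led. Rere, which encodes a corepressor of the atrophin family (chromosome 4, 150281646 to 150621966), had the most members, 15, and the leading circ_00045_Rere held 28.2% of their sum. That circle stood at 37.5, 37.1 and 44.9 in libraries 1, 2 and 3, the next, circ_00074_Rere, at 16.4, 30.3 and 25.5, and the others had means from 1.62 to 15.8. Zfp644, a zinc finger gene with 7 members, was the most even host of all with 2 or more, its leading circle holding 26.7%. Ncam2, which encodes a neural cell adhesion molecule, had 8 members with 37.7% in the first, circ_00171_Ncam2, at 15.2, 12.6 and 24.0.

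Rims2 was the opposite case. It had 10 members, and circ_00006_Rims2 held 87.0% of their sum, with the second, circ_00375_Rims2, at 3.52, 11.8 and 9.29 normalized reads. Tulp4 had 3 members and 95.9% in the first, the largest share among hosts with 2 or more. Over the 272 hosts with at least 2 members the leading circle held a median of 62.8%.

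Rmst, Ezh2, Strn3 and Ttc3 lay between these. Rmst had 9 members with a summed level of 315, 321 and 310 in libraries 1, 2 and 3. circ_00004_Rmst held 51.6% of it, circ_00018_Rmst stood at 65.7, 64.9 and 68.1 and circ_00030_Rmst at 58.6, 43.0 and 51.9. The summed level of Rmst varied less between libraries than its leading circle did. Ezh2 had 6 members that summed to 316 ± 19.7, led by circ_00005_Ezh2 with 67.8% and followed by circ_00024_Ezh2 at 72.7, 69.1 and 50.3. Strn3 had 8 members summing to 223 ± 24.6, and Ttc3 had 7 summing to 274 ± 39.0, nearly all in the 2 circles named above. By summed level Tulp4 came first at 553 ± 16.5. The next 5, Ezh2, Rmst, Ttc3, Hdgfl3 and Rims2, had means between 267 and 316, and their ranges over libraries overlapped except for Ezh2 against Hdgfl3, Rmst against Hdgfl3 and, barely, Rmst against Rims2. The plot of circles per host shows both sides of this.

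**Figure D2:**
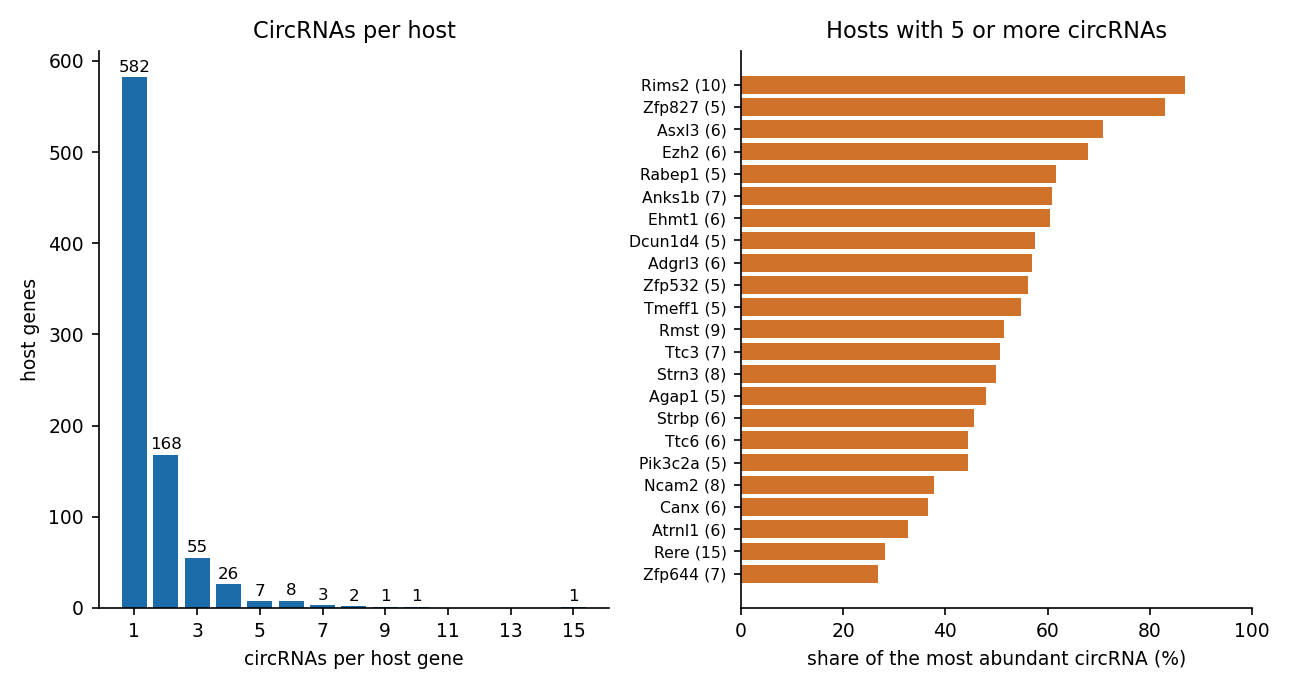
Left, number of host genes by the number of member circRNAs they gave. Right, for the 23 hosts with 5 or more members (number in brackets), the share of the host's summed mean held by its most abundant circRNA: Rims2 is at 87.0% and Zfp644 at 26.7%.

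The hosts were long, many-exon, protein-coding genes of middle to high level. Of the 854 host genes 853 had a row in the gene table and Rmst had none. Of those 853, 847 (99.3%) were protein-coding, against 79.0% of the 18155 genes with an annotated model and a GFP negative mean of at least 5 normalized reads. The other 6 were 4 processed transcripts, 1 long intergenic non-coding RNA and the pseudogene Nlrp5-ps. Among the 14350 protein-coding genes of that level, 5.90% were hosts.

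Protein-coding host genes spanned a median of 101504 bp of genome with 16 exons in the annotated transcript that had the most, against 23669 bp and 9 exons for other protein-coding genes. Their merged exons covered 8484 bp against 4375 bp. Per length, hosts stood at a median of 198 normalized gene reads per kb of exon in GFP negative cells, against 93.3 for the others. The share of protein-coding genes that were hosts rose from 0.180% of those under 10 kb to 8.48% at 30 to 100 kb and 23.5% above 300 kb. By exon number it rose from 0.201% with 1 or 2 exons to 14.3% with 21 to 30, and was 14.8% above 30. By level per kb it rose from 0.139% in the lowest decile to 9.97% in the seventh, stayed at 9.62% and 9.76% in the next 2 deciles and was 7.25% in the highest. Span, exon number and level vary together between genes, and their separate parts were not tested. A host also needed a circle with at least 2 reads in each of 2 libraries, which genes of low level could less easily reach. The part of this detection floor in the rise with level was not tested. The plot of host share shows these 3 series.

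**Figure D3:**
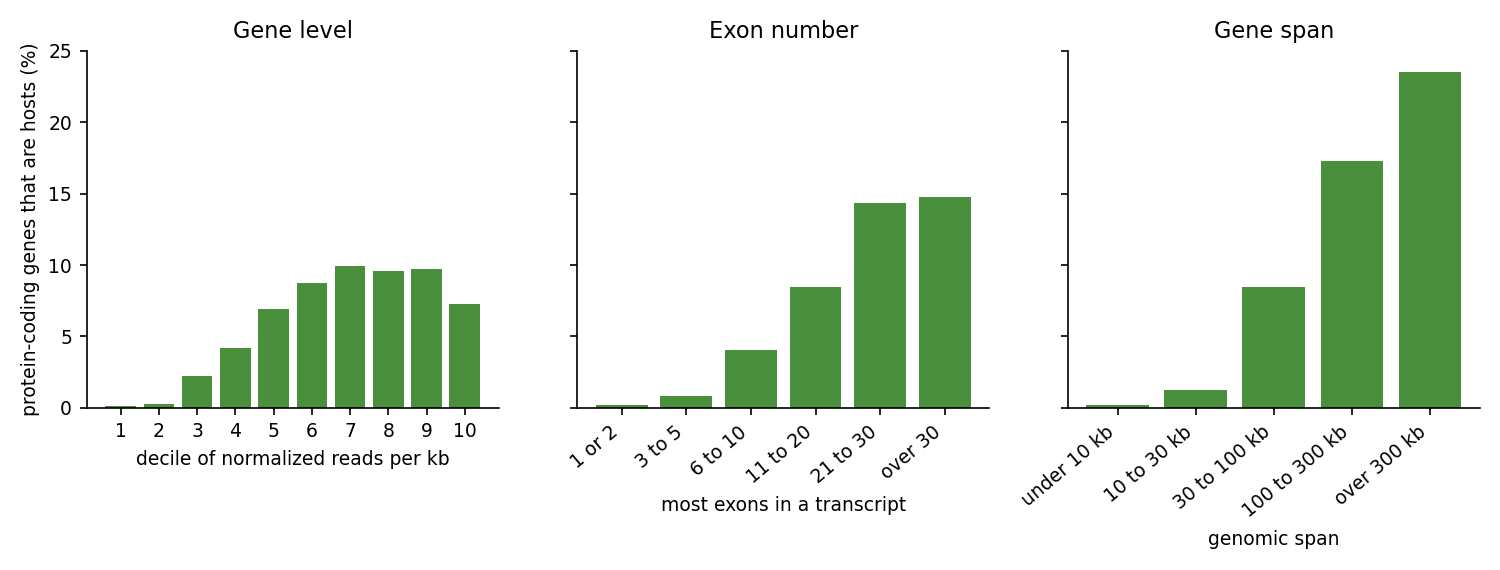
Share of protein-coding genes (GFP negative mean of at least 5 normalized reads) that hosted a member circRNA, by decile of normalized gene reads per kb of exon, by the largest exon number of an annotated transcript, and by genomic span. The share rises from 0.180% to 23.5% over the span classes, and by level it is highest, 9.97%, in the seventh decile.

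Among hosts, the level of the gene said little about how much circle was seen. The rank correlation between the summed circle level and the gene's reads per kb was 0.095 over 853 hosts, and that between the number of circles and the exon number was 0.081. Both are descriptions, across genes of the same libraries. They cover only genes whose circles passed the detection rule, and the part of that choice in the low values was not tested. Ttc3, the host with the most gene reads, stood at 50956 ± 2058 normalized reads and its circles made up 0.537% of that number. Tulp4 stood at 17610 ± 1167 and its circles at 3.14%. Over all hosts the circle reads amounted to a median of 0.345% of the host's gene reads (interquartile range 0.142% to 0.841%), with medians of 0.323%, 0.344% and 0.330% in the 3 libraries. This percentage sets junction reads against reads over the whole gene, and it joins 2 tables that the authors scaled separately. After that scaling a back-splice read counted for 1.09, 0.963 and 0.885 times a gene read in libraries 1, 2 and 3. Relative to gene reads, the unscaled back-splice reads of members rose from library 1 to library 3. In unscaled reads each percentage would therefore be lower in library 1 and higher in libraries 2 and 3. Gene reads also include those from circles, and a long gene has more of them.

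At 181 hosts the percentage was at least 1, at 23 at least 5 and at 6 at least 10. Among the 343 hosts with at least 50 gene reads and either 2 members or a circRNA mean of 10, Cdyl led. Cdyl encodes a chromodomain protein that reads repressive histone marks (chromosome 13, 35659833 to 35874063). Its circ_00032_Cdyl stood at 42.2, 48.9 and 47.2 normalized reads and the gene at 363, 403 and 387, which gave 11.6%, 12.1% and 12.2%. Ezh2 reached 11.6% ± 0.484, Rasa2 10.2% ± 0.819, Zfp827 10.1% ± 0.385 and Rims2 9.78% ± 1.0 (SD, n = 3). The ranges of Cdyl and Ezh2 overlapped. The SDs of these percentages, here and below, measure the spread after the authors' separate scaling of the 2 tables. The spread in unscaled reads was not tested.

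The next were Rad52, a gene of DNA repair, at 7.93% ± 1.30, the pseudogene Nlrp5-ps at 7.71% ± 0.988 and Rere at 7.08% ± 1.498, followed by Lrch3 at 6.44% ± 1.87 and Ube2cbp, a ubiquitin ligase gene, at 6.21% ± 0.374. Nlrp5-ps is a pseudogene, and reads that it shares with related genes could not be told apart. Set against gene reads per kb, which removes the length of the host, the order of the hosts that led by percentage changed. A circle sum of 1.62 per unit was found for Rasa2, 1.02 for Rims2, 0.905 for Zfp827, 0.773 for Ezh2 and 0.527 for Cdyl. The median over all hosts was 0.0298. Some hosts with lower percentages stood above Cdyl on this scale, among them Anks1b at 0.744 and Rere at 0.604. These values are visible in the plot of circRNA output against host level.

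**Figure D4:**
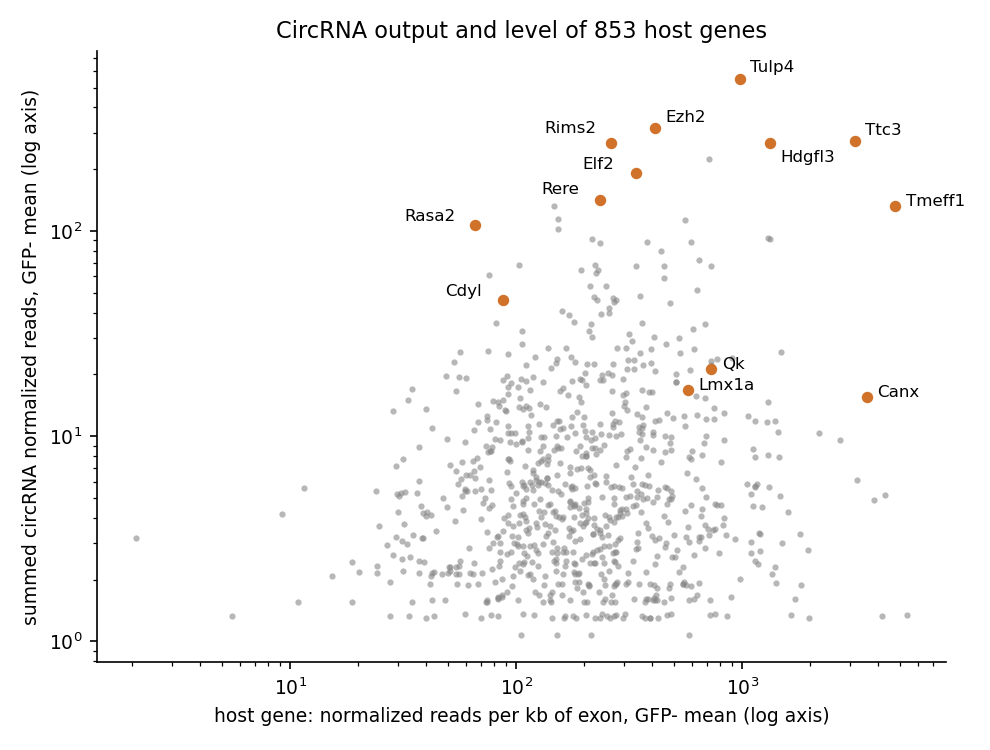
Summed normalized back-splice reads of each host's member circRNAs against the host's normalized gene reads per kb of exon in GFP negative cells (both log axes, means of 3 libraries, 1 point per host, 853 hosts). Tulp4 is highest, and Rasa2 and Cdyl lie high for their gene level, while Canx and Tmeff1 have high gene levels.

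Gene lists chosen with earlier results of these data known place the hosts by function. Of 30 genes known to host circRNAs in mammalian brain, 24 were hosts here, with 72 members that held 20.5% of the summed member means. The list was made of known hosts, so a high count was built in. Slc8a1, Unc79, Hipk3 and Rims1 were among them. Rims1, the paralogue of Rims2, had 4 members that summed to 29.3, 21.9 and 29.4, far below the Rims2 sum of 247, 309 and 245.

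Chromatin regulators were hosts in 23 of 50 cases (46.0%, against 5.90% of protein-coding genes), with 55 members. Beside Ezh2 and Rere they included Cdyl and Ehmt1, a histone methyltransferase gene whose 6 members summed to 30.5, 30.3 and 30.2. Synaptic genes were hosts in 14 of 50 (28.0%, 41 members), with Rims2, Anks1b and Rims1 among them. Anks1b had 7 members at 103, 121 and 118. Genes of migration and axon guidance were hosts in 13 of 50 (26%, 25 members), led by Fat3, Robo1, Ncam2 and the ephrin receptor gene Epha3, which had 2 members at 14.1, 6.74 and 12.4. Splicing and RNA editing genes were hosts in 7 of 39 (17.9%, 15 members). They included Qk, the gene of the RNA-binding protein Quaking that is known to favour circRNA formation, at 29.3, 10.96 and 23.2 over 3 members, and Elavl2, a neuronal RNA-binding protein gene, at 11.7, 9.27 and 15.5. Library 2 was the lowest for Qk, Epha3 and Elavl2. Adarb2 and Celf2 were lower still, with summed means of 6.44 and 6.30. The shares of these lists are descriptions, since the lists were chosen with earlier results known and the 5.90% covers genes of every length. Of protein-coding genes spanning 100 to 300 kb, 17.3% were hosts.

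Genes that mark the cell types of the mixture were set beside the same 5.90%. Of 40 radial glia and progenitor genes 3 were hosts (7.5%): Qk, Lin28b, whose protein blocks let-7 microRNA processing, at 11.7, 12.6 and 17.8, and the growth factor receptor gene Fgfr2 at 5.86, 8.43 and 8.51. Of 40 cell division genes 3 were hosts (7.5%): the DNA polymerase gene Pola1 at 7.04, 7.59 and 12.4, the condensin gene Smc4 at 7.04, 0 and 6.19 and the spindle checkpoint gene Bub1b at 5.86, 4.21 and 0. Both shares were near the 5.90% of protein-coding genes. The transcription factor gene Nfix, at 18.8, 18.5 and 14.7, was the 1 host among 24 genes of astrocytes and the oligodendrocyte lineage. No member came from the 20 GABAergic, 20 glutamatergic, cholinergic and serotonergic, 20 blood vessel, 13 erythroid or 16 microglial genes of the lists. At 5.90%, a list of 20 genes would hold about 1 host, so a count of 0 in lists this short says little. Of the 39 cell type markers 38 had no member, Fabp7 with its 47842 gene reads among them. The exception was Lmx1a, a dopamine neuron factor also used in the floor plate. Genes of these lists differ in length and exon number, and the part of that in the host counts was not tested.

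Dopamine neuron genes gave 3 hosts of 28 (10.7%) in the GFP negative cells. circ_00041_Lmx1a stood at 12.9, 20.2 and 17.0 normalized reads, the 2 circles of the transcription factor gene Pbx3 summed to 24.6, 18.5 and 24.8, and circ_00066_Gfra1, from a GDNF co-receptor gene, stood at 14.1, 4.21 and 17.0. The genes Th, Slc6a3, Pitx3 and Nr4a2 had no member. Nr4a2 was at 2181 ± 301 gene reads in the same libraries, more than Lmx1a at 1960 ± 81.5.

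The genes that hosted these circles were then compared between the sorted fractions, as gene reads, by limma over all 18260 genes with a mean of at least 5 (2 groups of 3 libraries, adjusted p of 0.05). In GFP positive cells 242 of the 853 hosts (28.4%) were higher and 107 (12.5%) lower. Over all genes tested, 12.7% were higher and 18.0% lower. Among protein-coding genes with a GFP negative mean of at least 500, a level chosen after the values were seen that 758 hosts met, 17.0% were higher and 13.5% lower, against 29.6% and 10.7% of those hosts. Most differences were small, with 24 hosts higher and 37 lower by at least 1 on the log2 scale. The median log2 fold change was 0.13 over hosts and 0.02 over all genes.

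The comparison of medians with all genes turned with the scaling. With quantile normalization 20.6% of all 853 hosts were higher and 14.5% lower, against 17.8% and 16.4% of all genes. Of the protein-coding genes above 500, 12.6% were higher and 16.9% lower. The medians were then 0.06 for hosts and 0.08 for all genes. For the protein-coding genes above 500 the median was -0.0024, against 0.04 before, below that of hosts with either scaling. Among called hosts the higher ones were then 58.7%, against 69.3% before, and among all called genes 52.0% against 41.3%. Without GFP negative library 3, limma called 161 hosts higher. Hosts were chosen by circles seen in GFP negative cells, and gene reads include circle reads.

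Hosts that were lower in GFP positive cells included the progenitor and division genes. Qk stood at 11818, 9721 and 9632 normalized gene reads in GFP negative and 1938, 1510 and 1532 in GFP positive libraries, a log2 fold change of -2.65 (SE 0.11, limma adjusted p = 1.61e-08). The groups did not overlap. All 3 progenitor hosts and all 3 division hosts were lower, with Fgfr2 at -1.96, Lin28b at -0.95, Bub1b at -1.98, Smc4 at -1.28 and Pola1 at -0.49 (limma adjusted p = 0.0341 for Pola1). The Pola1 call was lost without GFP negative library 1 or 3 or GFP positive library 2 or 3, at limma adjusted p from 0.0841 to 0.145. Epha3 and Ncam2 were lower by log2 fold changes of -2.10 (SE 0.14) and -1.06 (SE 0.09), and Nfix of -1.23 (SE 0.09). The 7 radial glia and progenitor markers and the 3 dividing cell markers were all lower in GFP positive cells too, and their part in these results was not tested.

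Hosts that were higher in GFP positive cells included the 3 dopamine neuron hosts. Gfra1 stood at 1375, 1581 and 1712 gene reads in GFP negative and 9199, 9809 and 10426 in GFP positive libraries, a log2 fold change of 2.66 (SE 0.09, limma adjusted p = 3.86e-09). Lmx1a and Pbx3 were higher by 2.14 (SE 0.08) and 1.64 (SE 0.08). The counts by list that follow stand beside the 28.4% and 12.5% of all hosts that were higher and lower. Of the 23 chromatin hosts 10 were higher and 1 lower (6 and 1 with quantile normalization), with a median of 0.20, and Cdyl was higher by 0.40 (SE 0.10). Of the 14 synaptic hosts 7 were higher and 3 lower (5 and 4 with quantile normalization), with Rims1 at 0.55 (SE 0.08) and Anks1b at -0.35 (SE 0.10). The Anks1b call was lost without GFP negative library 2 or 3 or GFP positive library 1 or 3 (limma adjusted p from 0.0556 to 0.109), and the Cdyl call without GFP positive library 2 (limma adjusted p = 0.0508). Of the 23 tested hosts known from brain 8 were higher and 0 lower (6 and 1 with quantile normalization), with Zfp827 at 0.35 (SE 0.08). Of the 13 migration hosts 6 were higher and 3 lower, and of the 7 splicing and editing hosts 2 and 2, with Adarb2 at 1.61 (SE 0.08) and Elavl2 at 0.88 (SE 0.10).

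The hosts with the most circle output differed little in gene reads between the fractions. Of the 10 with the highest summed circle level, the 9 with a gene row had log2 fold changes from -0.12 to 0.35. Tulp4 had a log2 fold change of 0.20 (SE 0.08, limma adjusted p = 0.0990), Ezh2 of 0.12 (SE 0.09, limma adjusted p = 0.364), Rims2 of -0.12 (SE 0.07, limma adjusted p = 0.240, and -0.23 with adjusted p = 0.0310 under quantile normalization) and Rere of -0.0023 (SE 0.07, limma adjusted p = 0.986). Ttc3, Hdgfl3 and Elf2 were higher by 0.30, 0.28 and 0.24, and these 3 calls did not hold with quantile normalization (0.037, 0.11 and 0.12). Each was also lost when single libraries were left out: Hdgfl3 without library 2 of either fraction, Elf2 without library 2 or 3 of either fraction, and Ttc3 without any 1 library but GFP negative library 1. Rmst, with no row in the gene table, was not analysed here as a gene.

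For the circles themselves the authors' deposited table gives the GFP positive against GFP negative comparison. It holds an adjusted p for 887 members, of which 8 passed 0.05, 7 higher and 1 lower in GFP positive cells. Over all 958 circRNAs with an adjusted p there, 1.04% were higher and 0.104% lower. Since members had to be seen in GFP negative cells, nothing is read from these counts. In the authors' deposited table the 18 most abundant members that did not pass had log2 fold changes from -0.39 to 0.37, with adjusted p from 0.536 to 0.987. The 2 of the top 20 that passed there were the leading circles of Rmst and Fat3.

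Set beside their hosts, the 7 called circles with a gene row had the same direction as the gene. Fat3 gene reads were higher by 0.59 (SE 0.11) and its circle by 0.65 in the authors' deposited table. The hosts Lmx1a, Gfra1, Pbx3 and AF529169 were higher by 2.14, 2.66, 1.64 and 3.07 in the limma fit, and the authors' deposited table has their circles at 1.90, 1.87, 1.29 and 4.22. Plce1, a phospholipase gene, was lower by -1.36 (SE 0.09) and its circle by -2.16 in the authors' deposited table. Pde5a, a phosphodiesterase gene, showed the widest gap, at 0.46 (SE 0.11) for the gene and 1.75 (SE 0.43) for circ_00095_Pde5a in the authors' deposited table. The difference between circle and host was not tested. circ_00147_AF529169 was barely present in GFP negative cells, at 2.35, 0 and 2.32 normalized reads. The plot of fold changes sets circles and hosts side by side.

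**Figure D5:**
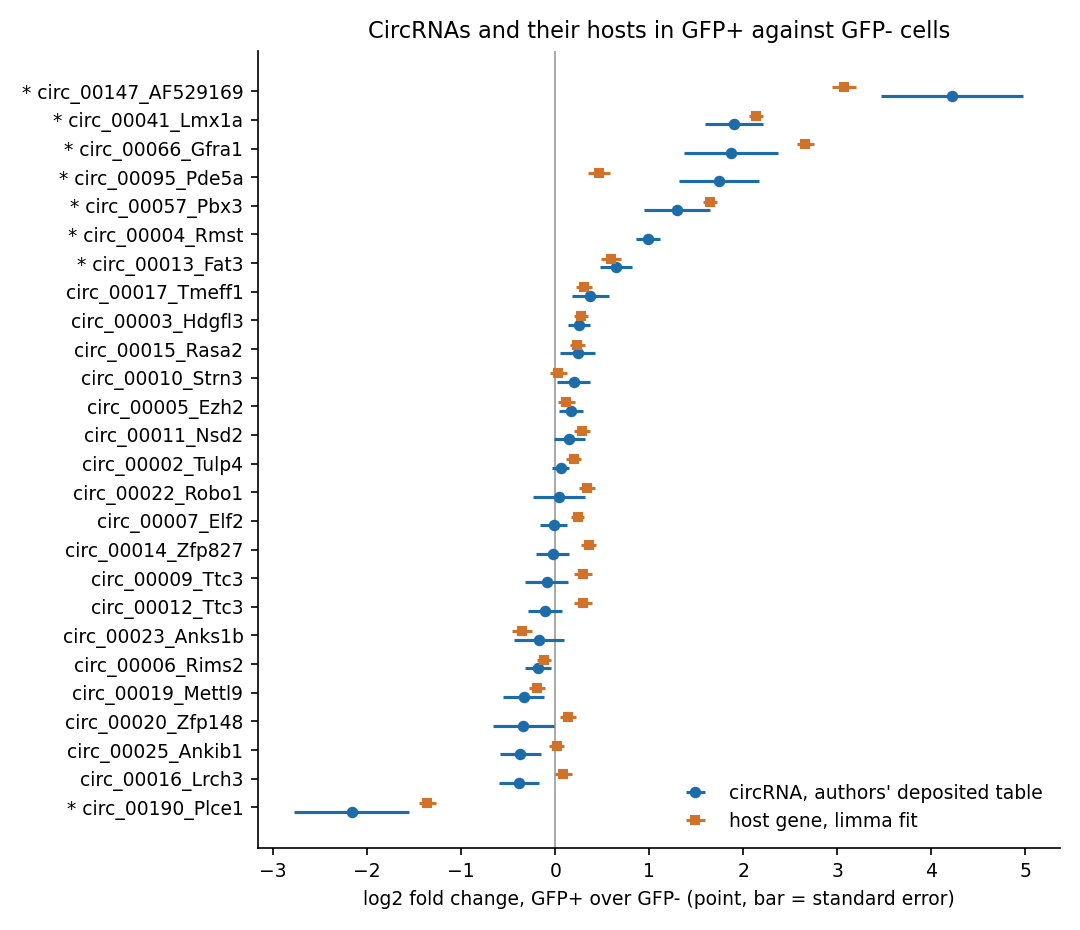
log2 fold change in GFP positive over GFP negative cells for the 20 most abundant members and the members that passed 0.05 in the authors' deposited table (asterisk): circRNA from that table (circles) and host gene from the limma fit (squares), with standard errors as bars. The 18 abundant circles without an asterisk lie between -0.39 and 0.37, and no gene value is drawn for Rmst.

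Some members came out at 0 in GFP positive cells, by a mean that was derived and not listed. Results below 0 were set to 0, and a 0 can again stand for a single read. Taking the GFP negative mean out of the mean that the authors' deposited table gives over both fractions yields a derived GFP positive mean. It was 0 for 211 members (15.5%), against 32.0% of all 3927 circRNAs in the table. The 3927 include 960 at 0 in all 3 GFP negative libraries and many rarer circles that the rule left out, so nothing is read from the 2 shares. The 211 members were rare circles, with a median GFP negative mean of 2.02 and 46 of them above 0 in all 3 GFP negative libraries. The most abundant were circ_00684_Smad4, from the gene of a TGF-beta signal transducer, at 4.69, 10.1 and 5.42, and circ_00741_Upf2, from a gene of nonsense-mediated decay, at 9.38, 5.90 and 4.64. In the authors' deposited table both had an adjusted p of 0.0964. Of the 229 members with a mean of at least 10, 0 had a derived GFP positive mean of 0.

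Host names were also set against the E14 GFP positive cells of the time series, by the same rule. Circles were not matched, since each table numbers its own, and levels were not compared, since the tables were scaled separately. The time series libraries were deeper, with 29934, 32905 and 24760 back-splice reads, and gave 2154 circRNAs from 1216 hosts. The 2 lists shared 721 host names, 84.1% of the 857 names of the GFP negative list and 59.3% of the time series list. Of the 136 GFP negative hosts outside the shared set, 85 had a circle above 0 in at least 1 E14 time series library. Their circles were rare in GFP negative cells, with a median summed mean of 2.19 against 5.70 for shared hosts. The highest was Rims1, whose leading circ_00112_Rims1 had a derived mean of 19.9 in the sorted GFP positive cells against 14.6 in GFP negative cells. It was followed by Dnajc1, a chaperone gene, at 19.9, 21.9 and 27.1.

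Few members lay outside annotated genes or were labelled antisense. The highest of the 17 intergenic members, circ_00220_intergenic, stood at 15.2, 14.3 and 6.19. circ_00295_Cdr1-AS, the circle known for its many sites for the microRNA miR-7 and for its abundance in mature brain, stood at 4.69, 10.1 and 4.64, rank 364 among the 1361 members. The antisense circles labelled Myt1-AS and Map1b-AS had means of 1.34 and 1.08 and were seen in libraries 2 and 3. How strand was used in calling circles is not given in the sources used here.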

How the data were processed

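RNA was extracted from sorted cells with the miRNeasy micro kit, depleted of ribosomal RNA with Ribo-Zero and made into libraries with ScriptSeq v2, per the labels' protocols. The authors deposited normalized reads per gene and per circRNA, used here as a signal value in which each library was divided by 1 factor. Trim Galore, TopHat2, DESeq2, GRCm38 and mm10 are named without versions, per the submitters' processing notes; the circRNA caller, its filters and the read counter are not given in the sources used here. For circRNAs in GFP positive against GFP negative cells, a table of the authors holds the log2 fold change, its standard error, a p-value and an adjusted p, per the file headers. The sorted circRNA table numbers its entries up to 5682, and 1755 of those numbers were not analysed here. Its columns cover the GFP negative libraries.

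Members were circRNAs above 0 in at least 2 of 3 GFP negative libraries. Means ± SD over libraries, circles per host and ratios were computed with Python 3.11.15. Hosts were matched to the gene table by symbol (853, with 1 by an older symbol), and for the time series 16 names were updated by RefSeq synonyms. Positions, spans, exon numbers and merged exon lengths come from GENCODE M21 on GRCm38. Genes were compared with limma-trend 3.58.1 (R 4.3.3; two-sided, log2(value + 1), mean of at least 5, Benjamini-Hochberg over 18260 genes), and fold changes are on that scale. Gene values were whole multiples of 1 step per library within 0.1 for 100% of values, and edgeR 4.0.16 on these recovered reads called 2151 genes higher and 3274 lower of 16644. The limma, block and edgeR fits were tested on simulated data. Sorted libraries held 17369191 to 22374153 gene reads. Reads carried no molecular identifiers.

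The members and lists were chosen with earlier results of these data known. Text names the 20 most abundant members, the 10 hosts with most members, the 10 with the highest sum, the 10 with the highest percentage of gene reads, up to 4 hosts per list by sum, members past 0.05 in the authors' table, the hosts with the 5 lowest and 5 highest log2 fold changes among hosts of those 20 members, and Th, Slc6a3, Pitx3, Nr4a2 and Rmst. Other names (edges of a range or threshold, most variable, at 0 in GFP positive cells or outside the shared time series hosts, intergenic or antisense, markers, further known brain hosts, Canx and Dnajc1) were chosen after their values were seen. Alternatives were stricter and looser detection, other pseudocounts, filters and scalings, a block, edgeR, and leaving out each library.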

Additional observations from a re-analysis of the deposited data

How the results depend on the processing

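The size of the repertoire followed the detection rule, by construction. Detection in all 3 libraries, in at least 1, or at 3 or more normalized reads gave 750, 2967 or 850 circRNAs. Hosts numbered 530 with all 3 and 1605 with at least 1. Hosts with 2 or more circles numbered 127, 614 and 153, and hosts shared with the time series 423 and 1261 for all 3 and at least 1. Leaving out 1 GFP negative library at a time gave 879 to 1045 circRNAs and 160 to 198 hosts with 2 or more. The median circle percentage of host reads was 0.357 with recovered reads. Leaving out 1 library gave 161 to 265 hosts higher in GFP positive cells by limma and 81 to 115 lower. The lowest count of higher hosts came without GFP negative library 3.

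With the column number as a replicate block limma called 398 hosts higher and 156 lower, and 4149 genes higher in all. Same-numbered libraries correlated at 0.367, 0.1204 and 0.0976 after removal of group means, and not every library correlated best with its own number, so the numbers were not taken as pairs. The cause of the larger counts was not tested. Of 50 named genes followed, 35 passed 0.05, and 12 of these lost the call under at least 1 alternative, 9 of them with quantile normalization and 2 with edgeR. The call of Rasa2 was lost in both. Another 6 gained a call under at least 1 alternative, 5 of them with the block, and Rims2, Mettl9 and Rad52 with quantile normalization (limma adjusted p = 0.0310, 0.0150 and 0.00915). Changes of sign were seen in 6 uncalled hosts. Quantile normalization gave -0.043 for Celf2, -0.082 for Strn3 and -0.11 for Ankib1, and edgeR gave -0.028 for Ube2cbp. Leaving out 1 library gave -0.020 to 0.17 for Celf2, -0.037 to 0.099 for Strn3, -0.087 to 0.14 for Ube2cbp, -0.016 to 0.055 for Ankib1, -0.024 to 0.029 for Rere and -0.12 to 0.045 for Nlrp5-ps. The cause was not tested. Depth limits the rare members: at a median of 3.64 normalized reads, presence or absence in a library was not measurable with certainty.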
